A study of Mus musculus with 37 samples.

Results

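Oxidative phosphorylation is built from subunits encoded in 2 genomes, and 84 genes of its nuclear share were followed here through podocyte-enriched and whole-kidney RNA of diabetic and control mice. They were taken by symbol from the 32108 genes of the count table: protein-coding genes outside the mitochondrial chromosome with the stems Ndufa, Ndufb, Ndufc, Ndufs or Ndufv and a number, Sdha to Sdhd, Uqcr, Cox4 to Cox8, or Atp5. By complex they comprised 37 genes of complex I, 4 of complex II, 8 of complex III, 18 of complex IV and 17 of complex V. Of the complex I genes 7 encode core subunits, and 8 of the 84 genes are tissue-restricted or inducible paralogs of another member. The name rule also takes 3 genes that are not subunits (Cox7a2l, a respiratory supercomplex factor, and Atp5s and Atp5sl, relatives of a coupling factor), and it misses Ndufab1 and Cyc1, which are subunits under other names.

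Complexes I and II pass electrons from NADH and succinate to ubiquinone, complex III passes them on to cytochrome c, and complex IV reduces oxygen. Complexes I, III and IV pump protons across the inner mitochondrial membrane, and complex V, the ATP synthase, uses that gradient to make ATP. Proximal tubule cells of the kidney are dense in mitochondria because reabsorption runs on ATP, whereas podocytes, the filtering epithelial cells of the glomerulus, carry fewer and also draw on glycolysis.

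The study used translating ribosome affinity purification (TRAP), in which tagged ribosomes of one cell type are pulled down from tissue and the mRNA on them is sequenced. The labels name podocytes as the target, and the deposit's own naming gives a podocin-Cre driver, Cre under a podocyte gene's promoter. All mice were C57BL/6. In the type 2 arm every mouse lacked eNOS, the endothelial nitric oxide synthase: diabetic mice were eNOS-/- db/db and controls eNOS-/-, with 5 diabetic and 5 control libraries at 3 months of age and 3 diabetic and 4 control libraries at 6 months. In the type 1 arm diabetic mice had received streptozotocin (STZ), a toxin of insulin-producing cells, and controls had not, with 5 diabetic and 4 control libraries at 3 weeks after STZ (age 3 months) and 5 and 5 at 24 weeks (age 8 months). STZ and diabetes cannot be told apart there, and the genotype of that arm is not stated in the labels. One further library was total RNA of the whole kidney of an eNOS-/- control at 3 months. Nothing in the labels ties a replicate to its own animal, and a p-value here is read against differences between libraries that may be partly technical.

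The 36 TRAP libraries held 6702120 to 37786025 counts and the kidney library 28033680. Nphs1 and Wt1, defining podocyte genes, lay at 118 to 2060 and 195 to 2358 CPM (a gene's count scaled to a common library total) in TRAP libraries and at 13.9 and 13.7 CPM in whole kidney. Each TRAP library detected 78 to 83 of the 84 genes. CPM values below are scaled over the 36 TRAP libraries by edgeR's TMM factors, changes are log2 values from edgeR's quasi-likelihood test, and a gene is called at a Benjamini-Hochberg adjusted p under 0.05 over all genes tested. Levels are set between genes only in the deposited FPKM, which are per length.

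The subunits were abundant. Their median level over the 36 TRAP libraries, leaving the paralogs and non-subunits aside, was 40.5 FPKM for complex I, 44.9 for complex II, 67.2 for complex III, 72.4 for complex IV and 45.8 for complex V. The highest levels were those of Cox8a, a small complex IV subunit, at 388 FPKM, and of the catalytic-head subunits of ATP synthase, Atp5a1 (alpha) at 381 FPKM and Atp5b (beta) at 301 FPKM. Cox6a1 followed at 273 FPKM, whereas Ndufb2, an accessory subunit of complex I, had 2.51 FPKM. FPKM divide by all exonic bases of a gene, 5628 for Ndufb2 and 659 for Ndufb6, another accessory subunit. In the 27 TRAP libraries outside 3 weeks their medians were 11.4 and 13.1 CPM. Levels set between genes therefore depend on the length used. Within complex II the flavoprotein Sdha had 119 FPKM, above the membrane anchor Sdhc at 33.9 FPKM. Together the 84 genes took 0.427% to 1.36% of a TRAP library's counts, with a median of 0.854%, against 1.24% in whole kidney.

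The paralogs were low. Cox7a1, the heart and muscle form of a complex IV subunit, averaged 8.69 FPKM, Cox6b2 (a testis form) 2.65 FPKM and Cox6a2 (a muscle form) 1.02 FPKM. Ndufa4l2, a hypoxia-inducible relative of Ndufa4, averaged 1.71 FPKM. Cox4i2, Cox7b2 and Cox8b averaged 0.299, 0.417 and 0.424 FPKM and were at 0 in 15, 17 and 26 of 36 libraries, and Cox8c was at 0 in 35.

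Against whole kidney, most subunits were slightly lower in podocyte-enriched RNA. The ratio of the mean of the 5 eNOS-/- control TRAP libraries at 3 months to the single kidney library, each at CPM + 0.5 without TMM scaling, was below 1 for 67 of 81 members with at least 10 counts, and the median was 1.32-fold lower, beside 1.01-fold lower for all genes. Of these members 2 were more than 2-fold lower, where 7.99% of all genes were, and 0 were more than 2-fold higher, where 8.64% were. With 1 kidney library there is no test, and the kidney intervals below are exact 95% Poisson intervals that cover counting error only.

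Complex II and complex V stood lowest, with medians 1.53-fold and 1.47-fold lower, against 1.29-fold for complexes I and III and 1.26-fold for complex IV. Sdhb, the iron-sulfur subunit of complex II, had 94.96 ± 4.97 CPM in control TRAP libraries (SD, n = 5) and 179.9 CPM in kidney (interval 175 to 185), 1.89-fold lower. Ndufs8, a core iron-sulfur subunit of complex I, had 40.8 ± 6.12 CPM in TRAP libraries and 76.2 CPM in kidney, 1.86-fold lower. Cox7a1 averaged 2.80 ± 0.966 CPM in TRAP libraries against 6.67 CPM in kidney (2.17-fold lower), and Ndufa4l2 averaged 1.22 ± 0.384 CPM against 3.14 CPM (2.12-fold lower). At the other end, Cox7a2l had 77.9 CPM in TRAP libraries and 64.5 CPM in kidney, and Atp5g2, one of 3 genes for the same membrane-ring protein of ATP synthase, had 48.8 ± 8.37 CPM and 40.5 CPM, 1.21-fold and 1.20-fold higher.

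**Figure D1:**
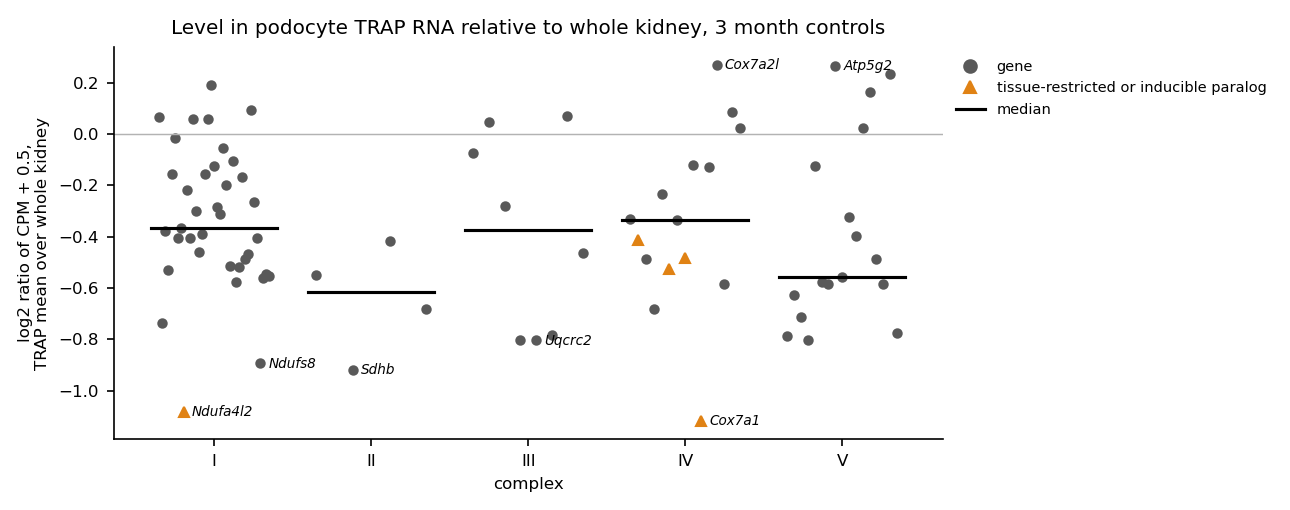
Ratio of control TRAP libraries (mean of 5) to the whole-kidney library on a log2 scale, one point per gene by complex, triangles for paralogs and bars for medians. Most points lie below 0, Cox7a1 and Ndufa4l2 lowest (2.17-fold and 2.12-fold lower), and Cox7a2l and Atp5g2 highest.

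Other lists place these ratios. Enzymes of the TCA cycle were a median of 1.66-fold lower in TRAP libraries, assembly factors of the complexes 1.04-fold lower, and cytosolic ribosomal protein genes had a median log2 ratio of 0.09. The 13 protein-coding genes of the mitochondrial chromosome were all more than 2-fold lower, with a median of 11.5-fold. Nuclear and mitochondrial subunits of the same complexes thus stood far apart in this ratio. The TRAP libraries hold RNA pulled down with tagged ribosomes and the kidney library total RNA. Cell type and kind of RNA therefore cannot be told apart here, least of all for the mitochondrial genes. Proximal tubule markers were a median of 2.50-fold lower, with 21 of 24 more than 2-fold lower, and 20 of 20 podocyte markers were more than 2-fold higher.

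At 6 months, podocyte-enriched RNA of eNOS-/- db/db mice held less of the respiratory chain's messages than that of eNOS-/- controls. Summed over the 84 genes, the 3 diabetic libraries had 6236, 7243 and 3632 CPM, and the 4 control libraries 8538, 8975, 8627 and 8754 CPM. All diabetic libraries lay below all controls, and replicate 3 was far below the other two. By complex the same separation held for the sums of complex I (910 to 1864 CPM in diabetic and 2107 to 2276 CPM in control libraries), complex II (321 to 637 and 690.4 to 713 CPM), complex III (332 to 734 and 815 to 909.9 CPM) and complex V (1579 to 2861 and 3628 to 3939 CPM). The sums of complex IV overlapped, at 489.7 to 1196 CPM in diabetic and 1157 to 1388 CPM in control libraries. Of 81 members tested, 26 were lower in diabetic mice and 0 higher, which is 32.1%, while 22.9% of the 17180 genes tested were called, 11.7% lower and 11.2% higher. At an unadjusted p under 0.05, which 36.9% of genes reached, the count was 48, 47 of them lower. The median change of the members was -0.64, against -0.01 for all genes, and 78 of 81 were negative. The groups did not overlap, with every diabetic library below every control, for 40 of 81 members, where 15.8% of all genes did the same.

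**Figure D2:**
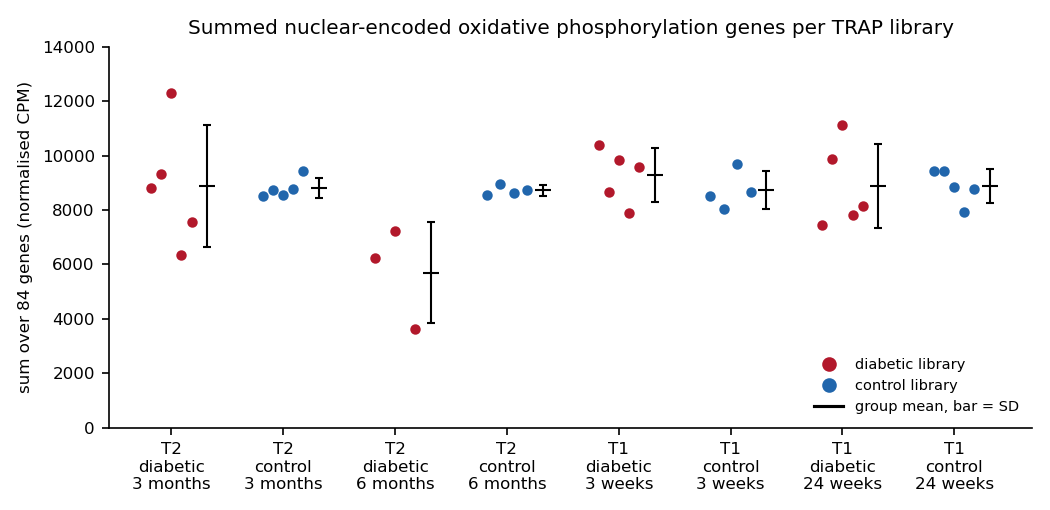
Summed normalised CPM of the 84 genes in each of the 36 TRAP libraries by group, each point one library, with the group mean and SD beside them. The type 2 diabetic libraries at 6 months, at 3632 to 7243 CPM, lie below their 4 controls at 8538 to 8975 CPM, and those at 3 months spread on both sides of theirs.

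Complex I gave 12 of the 26 calls among 37 members tested, with a median of -0.61. Ndufs8 had 20.7, 26.1 and 10.2 CPM in diabetic libraries, against 26.6, 39.6, 48.0 and 46.4 CPM in controls. Its groups did not overlap, although the highest diabetic library nearly reached the lowest control, and it fell by 1.06 on the log2 scale (SE 0.28, edgeR's quasi-likelihood test, adjusted p = 0.0126). Ndufs1, the largest iron-sulfur core subunit, had 76.7, 68.9 and 36.2 CPM against 97.1, 91.8, 99.2 and 89.8 CPM and fell by 0.63. Those were the 2 of 7 core subunits called, and the median over the core was -0.43. Among accessory subunits Ndufb2 moved most, with 3.90, 5.71 and 2.79 CPM in diabetic libraries and 18.6, 13.1, 17.3 and 8.95 CPM in controls, a log2 change of -1.78 (SE 0.53, adjusted p = 0.0228); its level is low, and it overlaps Braf on the other strand, which the sources used here do not say was counted apart. Ndufs5 and Ndufc1, small membrane-arm subunits, fell by 1.38 and 1.42. Ndufa4, first described in complex I and now placed in complex IV, had 43.0, 56.5 and 12.6 CPM against 67.0, 87.3, 89.7 and 76.9 CPM and fell by 1.08 (adjusted p = 0.0379). The remaining called accessory subunits moved by less: Ndufa9, with a nucleotide-binding fold, had 30.4, 31.3 and 21.1 CPM against 48.1, 47.4, 45.6 and 38.7 CPM and fell by 0.69, and Ndufa10, related to nucleoside kinases, had 82.2, 91.9 and 52.5 CPM against 107, 114, 115 and 128 CPM and fell by 0.61. In both, every diabetic library was below every control. Ndufa6, Ndufa8, Ndufa11 and Ndufa13 changed by -0.83, -0.74, -0.98 and -0.98; of these, Ndufa11 overlapped between the groups.

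In complex II, 1 of 4 genes was called. Sdhb had 60.6, 56.7 and 20.7 CPM in diabetic libraries and 101, 97.7, 95.7 and 91.2 CPM in controls, a fall of 1.05 (SE 0.27, adjusted p = 0.0102), with the controls close together and every diabetic library below them. Its partner Sdha, which holds the flavin site, had 400.0, 350.4 and 179.6 CPM in diabetic libraries against 409, 406, 424 and 443 CPM in controls, a change of -0.43 that was not called (adjusted p = 0.175). The membrane anchors Sdhc and Sdhd were at -0.16 and -0.25, with adjusted p values of 0.422 and 0.297. The difference between Sdhb and its partners was not tested.

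In complex III, 3 of 8 genes were called. Uqcrc2, a core protein facing the matrix, had the lowest adjusted p of all members: 81.7, 68.5 and 40.8 CPM in diabetic libraries, against 131, 119, 126 and 115 CPM in controls, a fall of 0.93 (SE 0.22, adjusted p = 0.00659). Its group means were 63.7 ± 20.9 CPM (SD, n = 3) and 122 ± 7.21 CPM (SD, n = 4). Uqcrfs1, the Rieske iron-sulfur protein, had 56.6, 66.4 and 49.0 CPM against 98.0, 84.9, 83.2 and 80.2 CPM and fell by 0.58 (adjusted p = 0.0124). Uqcrc1, the partner core protein, had 181, 167 and 83.7 CPM against 239.5, 234, 245 and 239 CPM and fell by 0.73. In all 3 genes diabetic replicate 3 was the lowest library and no diabetic library reached the controls. Cyc1, the cytochrome c1 of this complex, which the name rule misses, fell by 0.72 (adjusted p = 0.0167).

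In complex IV only Cox7b and Cox8a were called among 15 tested, although the median of -0.64 matched that of all members. Cox7b, a small structural subunit, had 20.3, 38.6 and 12.3 CPM in diabetic libraries and 57.8, 53.6, 43.8 and 45.0 CPM in controls and fell by 1.06 (SE 0.31, adjusted p = 0.0225). Cox8a had 131, 215 and 73.5 CPM against 209.7, 260.5, 232 and 224 CPM, so that diabetic replicate 2 lay within the control range, and fell by 0.72 (adjusted p = 0.0403). Cox4i1, the ubiquitous form of a core-bound regulatory subunit, had 186, 189 and 105 CPM against 206, 210.4, 186 and 169 CPM, with overlap, and a change of -0.26 (adjusted p = 0.399). The supercomplex factor Cox7a2l was at 0.07 (adjusted p = 0.871).

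Complex V gave 8 of 17, with a median of -0.76. These counts and the median include Atp5s and Atp5sl, which are not subunits, and Atp5sl is among the 8. Atp5j, coupling factor 6 in the stalk that holds the enzyme still, had 33.7, 51.6 and 18.7 CPM in diabetic libraries and 73.0, 67.0, 63.4 and 62.4 CPM in controls, a fall of 0.92 (SE 0.23, adjusted p = 0.00806). Atp5d, in the rotating stalk, had 88.5, 138 and 64.9 CPM against 150.2, 196, 199 and 220.4 CPM and fell by 0.97 (adjusted p = 0.0111). Atp5b, the catalytic subunit, had 854, 818 and 454 CPM against 1282, 1281, 1271 and 1332 CPM and fell by 0.86 (SE 0.24, adjusted p = 0.0154). In these genes every diabetic library lay below every control. Atp5c1, the shaft of the rotor, had 79.3, 96.9 and 69.9 CPM against 135, 169, 142 and 155 CPM and fell by 0.87. Of the stationary stalk, Atp5f1 had 112, 134 and 48.8 CPM against 169.5, 161, 156 and 175 CPM and fell by 0.74. Atp5o had 41.4, 60.5 and 17.5 CPM against 71.8, 88.3, 75.7 and 83.9 CPM and fell by 0.99. Both overlap genes on the other strand, and Atp5o also overlaps Donson and Cryzl1 on its own strand. Atp5j2, in the membrane part, fell by 0.97. Calls thus covered the catalytic head, the rotor and the stationary stalk. Atp5a1, which alternates with Atp5b in the catalytic ring, was at -0.40 and was not called (adjusted p = 0.17). Atp5sl, which is not a subunit, had 16.8, 16.6 and 15.6 CPM in diabetic libraries and 25.4, 31.5, 25.8 and 28.5 CPM in controls and fell by 0.76 (adjusted p = 0.00775).

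**Figure D3:**
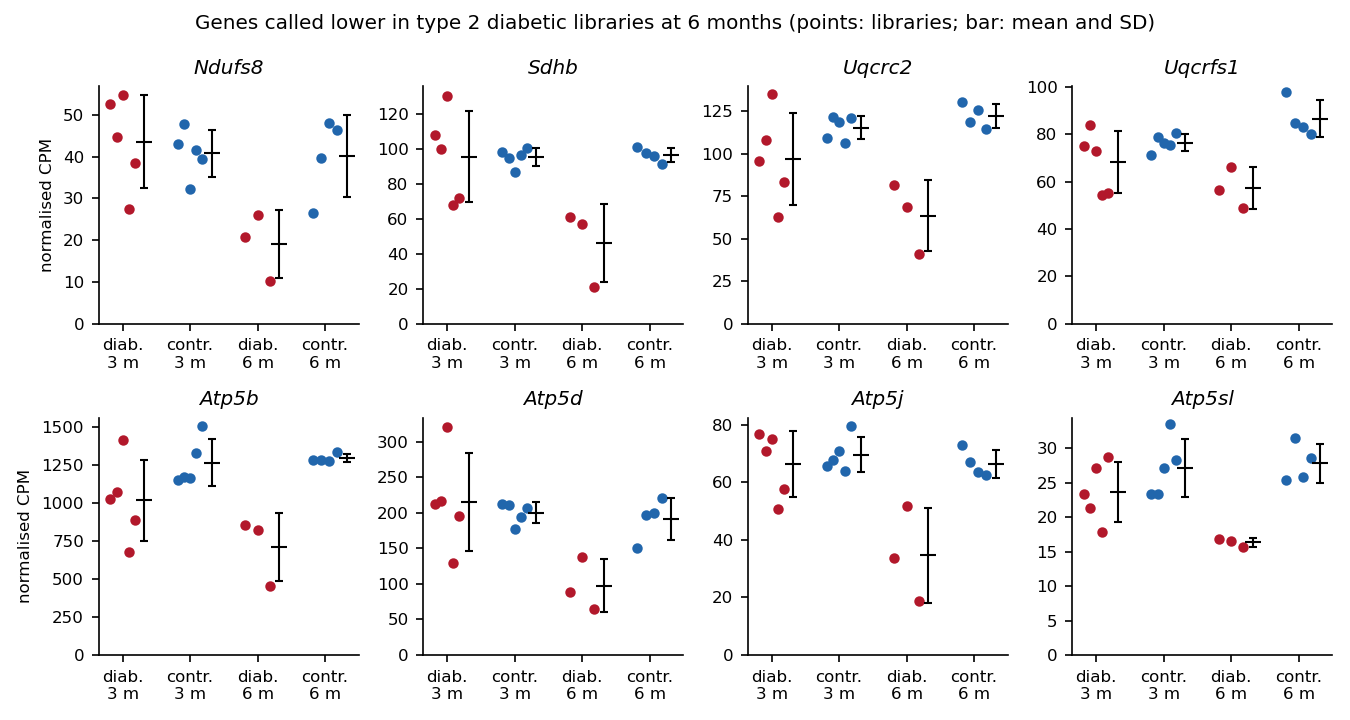
Normalised CPM of 8 members called at 6 months in the type 2 libraries at 3 and 6 months, diabetic left of control, one point per library with the mean and SD. At 6 months Sdhb, Uqcrc2, Atp5b and Atp5j lie below every control in all 3 diabetic libraries, and at 3 months the groups overlap.

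One library weighed on these counts. Diabetic replicate 3 was the lowest of the 7 libraries in 26 of the 26 called members and in 74 of all 81, and diabetic replicate 2 was the highest diabetic library in 20 of the 26. Replicate 3 also had the fewest counts of all TRAP libraries (6702120). Without it, 4 members were called (Atp5j, Atp5sl, Sdhb and Uqcrc2) where 5.72% of all genes were called lower, and the members' median was -0.40. Without replicate 2 instead, 56 members were called lower and the median was -0.99. Leaving out 1 of the 7 libraries at a time gave 1932 to 5350 genes called in either direction.

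Markers of the cell types moved too. Of podocyte markers 17 of 20 were called lower, with summed levels of 4737 to 20057 CPM in diabetic libraries and 33435 to 38147 CPM in controls, and none of them was at 0. Of proximal tubule markers 17 of 24 were lower, at 4213 to 10161 CPM against 15758 to 19382 CPM. Macrophage markers were higher in 11 of 14, at 207 to 369 CPM against 83.9 to 129 CPM, mesangial markers in 6 of 12, at 424 to 850 CPM against 224 to 270 CPM, and parietal epithelial markers in 6 of 8, at 334 to 514 CPM against 205 to 281 CPM. Replicate 3 had the lowest podocyte sum (4737 CPM), and replicate 2 the highest of the diabetic libraries (20057 CPM). With the podocyte score of each library as a covariate, 0 members were called and their median was 0.35; with the proximal tubule score, 0 and 0.40; the summed levels of both lists do not overlap between the groups. In bulk RNA of this kind, fewer cells of a type and less RNA per cell cannot be told apart, and the part of the markers' shift in the members' lower levels was not tested further.

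Other mitochondrial lists also had medians below 0 at 6 months in the type 2 arm, where 11.7% of all genes were called lower and 11.2% higher. Of TCA cycle enzymes 7 of 19 were lower and 0 higher, with a median of -0.61; the called ones included Suclg1 (succinyl-CoA ligase, -1.07) and 3 subunits of the NAD-dependent isocitrate dehydrogenase, Idh3g (-1.16), Idh3b (-0.89) and Idh3a (-0.77). Of mitochondrial carriers 5 of 15 were lower, with a median of -0.35, including both subunits of the pyruvate carrier, Mpc1 (-0.97) and Mpc2 (-0.94). Assembly factors were lower in 7 of 42 (16.7%, near the share of all genes), with a median of -0.38, among them Uqcc1 for complex III (-0.85) and Ndufaf1 for complex I (-1.09). Of the regulators of mitochondrial biogenesis 2 of 23 (8.7%, also near it) were lower, Sirt3, a mitochondrial deacetylase (-0.77), and Tfb2m, a mitochondrial transcription factor (-0.63), with a median of -0.15. Coding genes of the mitochondrial chromosome were lower in 3 of 12, with a median of -0.93, and mt-Co3 fell by 1.88. Cytosolic ribosomal protein genes gave 5 higher and 7 lower of 81, with a median of -0.02. Targets of the hypoxia-inducible factor went both ways, with 4 higher, among them the pyruvate dehydrogenase kinase Pdk1 (1.08) and the glucose transporter Slc2a1 (1.30), and 3 lower, among them Vegfa (-1.26).

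Among the paralogs, the inducible Ndufa4l2 had the highest change. It had 3.10, 2.17 and 4.83 CPM in diabetic libraries at 6 months and 0, 1.12, 1.06 and 1.42 CPM in controls, so that every diabetic library was above every control at low levels, as in 13.8% of all genes in this direction. Its change of 1.87 (SE 0.68) missed the threshold at an adjusted p of 0.0523, although it was called higher under 6 alternatives, with adjusted p values of 0.00725 (DESeq2) to 0.0484: DESeq2, RLE factors, a CPM filter, the replicate block, and without control replicate 1 or diabetic replicate 2. It overlaps Shmt2 on the other strand. As a share of the FPKM of Ndufa4 and Ndufa4l2 together it was 5.23% to 35.6% in diabetic libraries and 0% to 2.60% in controls. Cox6b2 was at 0.78 (adjusted p = 0.25) and Cox7a1 at -1.26 (adjusted p = 0.153).

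At 3 months the type 2 comparison called 0 of 81 members with edgeR's quasi-likelihood test, where 3.99% of genes were called (2.03% higher, 1.96% lower); DESeq2 also called 0. At an unadjusted p under 0.05, which 16.2% of genes reached, were 5 members, 2 higher and 3 lower. The groups did not overlap for 1 member, the sparse Cox7b2, higher in diabetic libraries as were 2.9% of genes in this way. The members' median was 0.11, beside 0.04 for all genes. Summed levels were 8877 ± 2244 CPM in diabetic libraries (SD, n = 5) and 8808 ± 367 CPM in controls (SD, n = 5), so the means nearly coincided while the diabetic libraries ran from 6366 to 12325 CPM and the controls only from 8534 to 9439 CPM. Sdhb shows the pattern, with 108, 99.5, 130.1, 67.8 and 71.8 CPM in diabetic libraries and 97.8, 94.5, 86.7, 96.3 and 100.4 CPM in controls. Replicates 1 and 3 were above every control, with replicate 3 highest, and replicates 4 and 5 were below every control. Uqcrc2 had 95.9, 108, 135, 63.0 and 83.4 CPM in diabetic libraries and 109, 122, 119, 107 and 121 CPM in controls, again with replicate 3 highest and replicates 4 and 5 lowest.

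Diabetic replicates 4 and 5 at 3 months had the lowest podocyte sums of their group, 18997 and 21090 CPM, while the other 3 diabetic libraries had 32470 to 35813 CPM and the controls 30920 to 47019 CPM. They also had the highest macrophage sums, 377 and 189 CPM, against 62.5 to 87.2 CPM in controls. With these 2 libraries left out, which was decided once their values were known, the members' median was 0.33; without replicate 3 it was -0.07. With the podocyte score as a covariate 21 members were called higher, with a median of 0.36, and with the proximal tubule score 3, with a median of 0.72. Of the 17180 genes tested, 1339 were called in either direction with the podocyte score and 229 with the proximal tubule score. The lowest summed level and the lowest podocyte score fell on the same library in 3 of the 8 TRAP groups, the lowest summed level and the lowest proximal tubule score in 4 of the 8, and the part of this in the results was not tested further.

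Whether the type 2 difference itself changed with age was tested as an interaction. For the 6-month difference minus the 3-month difference 0 of 17180 genes were called with edgeR's quasi-likelihood test, so 0% of genes and 0 members; 42 members, all lower, had an unadjusted p under 0.05, where 18.9% of all genes did, and DESeq2 called 4 members lower. The median was -0.72, against -0.05 for all genes. Cox7b had the lowest p, at -1.44 with an adjusted p of 0.135. The count rested on single libraries: 36 members were called without diabetic replicate 2 at 6 months, 2 without diabetic replicate 4 at 3 months, and 35 without both diabetic replicates 4 and 5 at 3 months. The same omissions gave 1911, 259 and 2090 genes called in either direction, so the shift was not limited to the members.

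**Figure D4:**
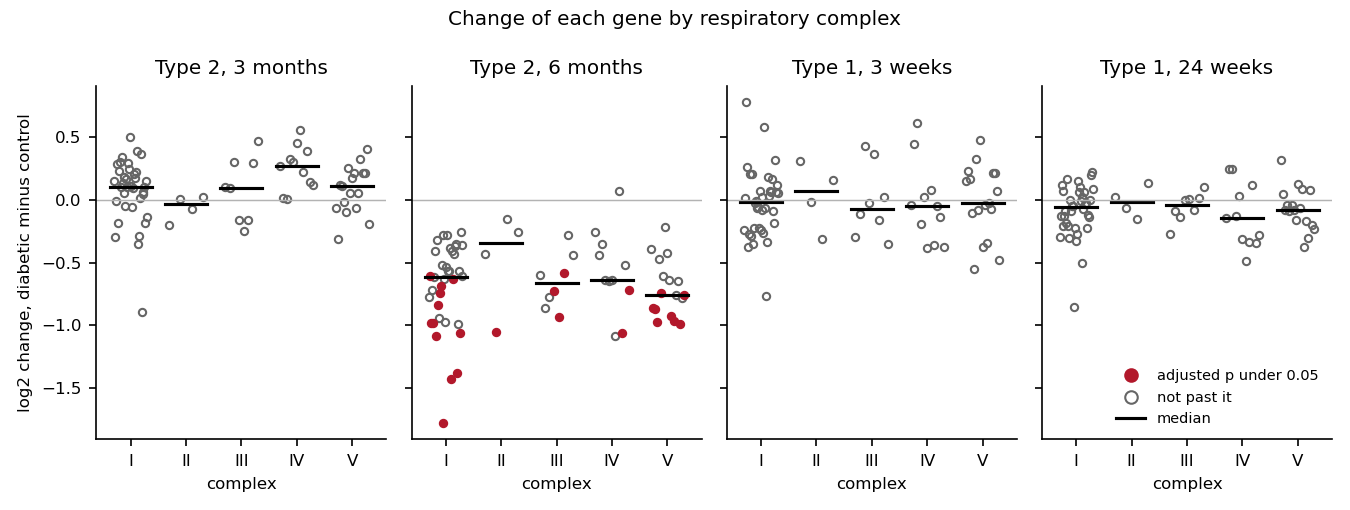
Log2 change, diabetic minus control, of each member that is not a paralog, by complex, in the 4 diabetes comparisons. At 6 months in the type 2 arm every point but Cox7a2l (0.07) is below 0, with medians of -0.34 for complex II to -0.76 for complex V. The points of complex V include Atp5s and Atp5sl, which are not subunits. In the other 3 comparisons points lie on both sides of 0 and none is filled as called.

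The type 1 arm showed no called member at either time. At 3 weeks after STZ 0 of 80 were called with edgeR's quasi-likelihood test, where 6.5% of genes were (3.78% higher, 2.72% lower). An unadjusted p under 0.05 was reached by 11 members (4 higher, 7 lower) and by 20.8% of all genes. DESeq2 called 2 members (Ndufb8 and Cox5b) and 1735 genes. The median was -0.03, against 0.00 for all genes, and the summed levels were 9279 ± 994 CPM in diabetic libraries (SD, n = 5) and 8739 ± 701 CPM in controls (SD, n = 4). Cox5b, a zinc-binding subunit of complex IV, came nearest: 79.7, 87.1, 110.2, 101 and 90.1 CPM in diabetic libraries and 62.4, 51.5, 64.1 and 64.6 CPM in controls, without overlap, as in 4.53% of genes in this direction. Its change was 0.61 (SE 0.20, adjusted p = 0.0693), and it was called with the replicate block (0.67, adjusted p = 0.0319), with only the 2 groups fitted (adjusted p = 0.0362) and with DESeq2 (adjusted p = 0.0369). Ndufb8, an accessory subunit of complex I, had 93.0, 92.7, 89.5, 54.3 and 82.6 CPM against 62.5, 33.4, 65.0 and 58.0 CPM, with diabetic replicate 4 within the control range, and a change of 0.58 (adjusted p = 0.0799). Without that replicate Ndufb8 was called, and without control replicate 3 Cox5a, a subunit of complex IV, was. Beside this, 15 of 24 proximal tubule markers were lower and 7 of 14 macrophage markers higher. The diabetic libraries detected 14320 to 21050 genes and the controls 15558 to 16362, and the part of this was not tested.

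At 24 weeks 0 of 80 were called with edgeR's quasi-likelihood test, where 0.897% of genes were. An unadjusted p under 0.05 was reached by 4 members and by 10.7% of all genes. The median was -0.07, against -0.01 for all genes, and ran from -0.14 (without diabetic replicate 3) to -0.02 (without diabetic replicate 1) with single libraries left out. Summed levels were 8881 ± 1557 CPM in diabetic libraries and 8892 ± 628 CPM in controls (SD, n = 5 each), and the diabetic libraries spread wider, from 7445 to 11122 CPM. Sdhb had 78.0, 94.0, 111, 72.8 and 78.9 CPM in diabetic libraries and 84.2, 96.1, 87.9, 90.7 and 99.9 CPM in controls (-0.07), and Uqcrc2 had 89.6, 113, 117, 84.8 and 87.9 CPM against 78.2, 106, 107, 85.9 and 116 CPM (0.01). Both pairs of groups overlapped, and no member was lower without overlap, where 1.68% of genes were. Ndufb2 was lowest at -0.85 (adjusted p = 0.309). Podocyte markers were called in 0 of 20 here, but 0 of 20 had a change above 0, and their median was -0.45. Their sums were 7438 to 31390 CPM against 15411 to 34282 CPM, and 6 of 24 proximal tubule markers were lower. For the 24-week difference minus the 3-week difference 0 of 16279 genes (0%) were called with edgeR's quasi-likelihood test, and 1 member had an unadjusted p under 0.05, where 6.71% of genes did.

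The late difference of the type 2 arm was set directly against that of the type 1 arm, as the 6-month type 2 change minus the 24-week type 1 change. Among 83 members 0 were called with edgeR's quasi-likelihood test, where 0.438% of 18511 genes were (0.178% higher, 0.259% lower); 32 had an unadjusted p under 0.05, 31 of them lower, where 15.1% of all genes did, and DESeq2 called 1 lower. The median was -0.58, against -0.01 for all genes. Sdhb had the lowest p, at -0.98 with an adjusted p of 0.0828. Without type 2 diabetic replicate 2 at 6 months 12 members were called lower, where 367 of 19656 genes were. Without replicate 1 of that group 1 member was, where 65 of 19530 genes were. Without replicate 3 of that group 0 members were called and their median was -0.32. An unadjusted p under 0.05 was then reached by 9 members and by 1829 of 19521 genes. The arms differ in model, duration and age together, and these cannot be told apart. For the early difference 0 members were called, where 0.94% of genes were (0.567% lower). An unadjusted p under 0.05 was reached by 8 members and by 14% of all genes.

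Control mice offered a comparison over age. Between eNOS-/- controls at 6 and 3 months 0 members and 0 genes (0%) were called with edgeR's quasi-likelihood test, and DESeq2 called 0 members; 0 members had an unadjusted p under 0.05. Between type 1 arm controls at 24 and 3 weeks, aged 8 and 3 months, 9 of 80 members were called, 7 higher and 2 lower, where 3.7% of genes were called, 2.16% higher and 1.55% lower. The median was 0.19, beside 0.03 for all genes. The groups did not overlap for 13 members higher and 3 lower, where 4.74% and 3.31% of genes did so. The 3-week controls detected 15558 to 16362 genes and the 24-week controls 17716 to 19882. The part of this in the calls was not tested.

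Atp5g2 changed most. It had 59.4, 37.2, 42.5, 39.8 and 57.3 CPM in 24-week controls and 10.03, 4.44, 11.6 and 18.3 CPM in 3-week controls, a log2 change of 2.09 (SE 0.28, adjusted p = 0.00015). Ndufs1 went the other way, with 88.6, 118, 95.8, 72.7 and 90.7 CPM in 24-week controls against 132, 190.4, 191 and 149.99 CPM in 3-week controls, a fall of 0.84 (SE 0.17, adjusted p = 0.00807). Neither gene's groups overlapped, and both were called with any single library left out. Cox5b had 115, 115, 105, 106 and 88.5 CPM against 62.4, 51.5, 64.1 and 64.6 CPM (0.80, adjusted p = 0.0258). Uqcr10, a small complex III subunit, had 108, 99.2, 90.8, 74.3 and 92.2 CPM against 52.3, 23.3, 57.3 and 55.0 CPM (0.99), and Atp5l, a membrane subunit of ATP synthase, 38.8, 21.3, 21.4, 22.3 and 27.8 CPM against 11.3, 8.07, 13.1 and 17.6 CPM (1.07). In these 3 genes every 24-week control was above every 3-week control. Cox6a1 (0.68), Ndufa5 (0.67) and Atp5g1 (0.61) were also higher and Ndufa9 (-0.61) lower. Control replicate 2 at 3 weeks was the lowest of its group in 8 of these 9, and without it 5 members were called, 2 higher and 3 lower, of which only 3 (Atp5g2, Ndufs1 and Ndufa9) are among the 9. Of the 9, 2 were called without control replicate 1 at 24 weeks, 5 without replicate 3 at 24 weeks or replicate 4 at 3 weeks, 6 without replicate 2 at 24 weeks, and 4 without replicate 5 at 24 weeks or replicate 1 or 3 at 3 weeks.

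Both 3-week groups, diabetic and control, stood apart from every other TRAP library in Atp5g2 and Ndufs1. For the other members called between the control ages, the 3-week libraries overlapped the rest. Atp5g2 ran from 4.44 to 18.3 CPM in the 9 libraries taken at 3 weeks and from 25.01 to 59.4 CPM in the other 27, and Ndufs1 from 132 to 254 CPM and from 36.2 to 118 CPM. Of 18511 genes 38 lay above and 68 below all others in this way, and 1 member did each. As a share of the FPKM of the 3 genes Atp5g1, Atp5g2 and Atp5g3, which encode the same mature protein, Atp5g2 made up 10.9% to 17.1% in diabetic and 4.47% to 11.3% in control libraries at 3 weeks, 16.3% to 53.6% in the other 27, and 18.1% in whole kidney. These shares depend on the exonic lengths used, which are 4912, 1675 and 2181 bases for Atp5g1, Atp5g2 and Atp5g3.

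**Figure D5:**
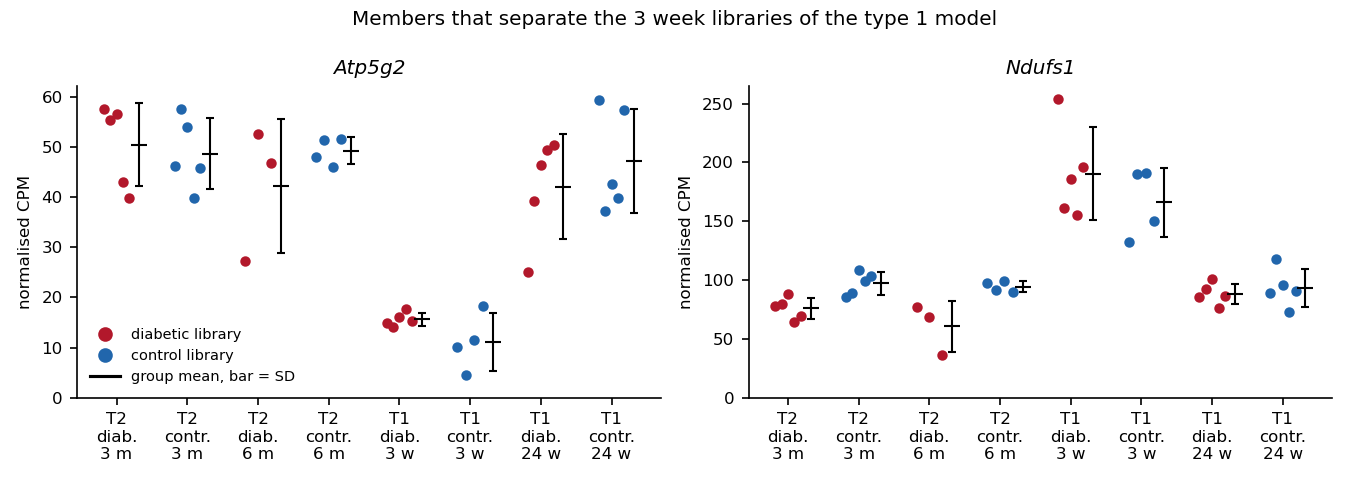
Normalised CPM of Atp5g2 and Ndufs1 in every TRAP group, one point per library, with the mean and SD. The 9 libraries at 3 weeks lie below all others for Atp5g2 (4.44 to 18.3 CPM) and above all others for Ndufs1 (132 to 254 CPM).

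The change between the control ages of the type 1 arm also followed transcript length. Members with under 1000 exonic bases had a median of 0.37, those of 1000 to 2000 bases 0.19 and longer ones -0.07, and all genes of the same lengths had 0.51, 0.19 and -0.01. Cytosolic ribosomal protein genes, also short, were higher in 22 and lower in 1 of 80, with a median of 0.45. At 6 months in the type 2 arm the members' medians in the same classes were -0.72, -0.52 and -0.63, while those of all genes were -0.10, -0.13 and 0.01. The part of length in these results was not tested. Age and any difference in how the sets of libraries were made cannot be told apart.

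The promoters of members that were called are shown because nuclear respiratory genes are known to share sites for NRF1, for ETS factors such as GABPA, for YY1 and for the estrogen-related receptors. RefSeq promoters on GRCm38.p6, from 250 bases before to 50 after the gene start, matched 69 of the 84 members, and both strands were searched. The letters GCGCATG (NRF1) stood in 13 of 69, or 18.8%, against 3.9% of all 32817 promoters; CCGGAAG (ETS) in 15, or 21.7%, against 8.86%; AAGATGG (YY1) in 11, or 15.9%, against 6.34%; and AAGGTCA (the estrogen-related receptors) in 8, or 11.6%, against 4.72%. At least 1 of them stood in 36 of 69. Each member gave the 1 window nearest its annotated start, within 100 bases of it for 59 of 69. The 32817 promoters were not limited by gene type, so the shares come from unlike sets, and their difference was not tested. Below are 3 called members with more than 1 kind of match (Sdhb, Cox6a1 and Atp5l) and the called complex I and complex V subunits of lowest p at 6 months with a promoter entry (Ndufs8 and Atp5j). Capitals mark the matches in either orientation.
Ndufs8 promoter, chr19:3912725-3913024, minus strand: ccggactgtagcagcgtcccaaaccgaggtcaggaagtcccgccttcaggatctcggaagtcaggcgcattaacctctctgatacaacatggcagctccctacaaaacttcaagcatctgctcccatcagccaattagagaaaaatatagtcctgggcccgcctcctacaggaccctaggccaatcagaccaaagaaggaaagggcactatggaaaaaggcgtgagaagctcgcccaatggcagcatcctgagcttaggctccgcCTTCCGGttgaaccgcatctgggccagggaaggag
Sdhb promoter, chr4:140961021-140961320, plus strand: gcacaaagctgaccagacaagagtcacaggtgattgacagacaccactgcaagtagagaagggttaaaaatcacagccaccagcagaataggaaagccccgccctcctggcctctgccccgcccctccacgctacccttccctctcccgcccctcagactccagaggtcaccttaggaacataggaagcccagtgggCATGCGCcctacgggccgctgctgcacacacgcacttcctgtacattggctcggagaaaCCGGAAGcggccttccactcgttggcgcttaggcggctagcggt
Cox6a1 promoter, chr5:115348909-115349208, minus strand: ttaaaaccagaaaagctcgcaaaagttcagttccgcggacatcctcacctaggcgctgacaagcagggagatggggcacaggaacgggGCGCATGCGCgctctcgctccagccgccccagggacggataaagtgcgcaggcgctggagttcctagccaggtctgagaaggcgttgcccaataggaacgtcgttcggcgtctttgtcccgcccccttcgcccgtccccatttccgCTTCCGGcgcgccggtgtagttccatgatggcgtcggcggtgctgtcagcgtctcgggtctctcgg
Atp5j promoter, chr16:84835576-84835875, minus strand: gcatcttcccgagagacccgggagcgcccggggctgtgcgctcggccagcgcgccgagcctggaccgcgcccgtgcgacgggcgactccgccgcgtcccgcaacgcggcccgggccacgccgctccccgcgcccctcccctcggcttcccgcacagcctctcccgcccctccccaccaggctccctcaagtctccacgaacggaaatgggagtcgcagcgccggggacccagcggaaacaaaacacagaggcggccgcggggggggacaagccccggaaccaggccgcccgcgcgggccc
Atp5l promoter, chr9:44920693-44920992, minus strand: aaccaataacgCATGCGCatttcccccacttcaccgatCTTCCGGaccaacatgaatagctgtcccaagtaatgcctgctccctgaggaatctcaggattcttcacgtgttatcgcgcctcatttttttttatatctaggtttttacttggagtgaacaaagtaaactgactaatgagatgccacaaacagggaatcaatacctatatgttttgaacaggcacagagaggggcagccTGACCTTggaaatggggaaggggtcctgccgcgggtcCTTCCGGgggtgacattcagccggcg
Sdhb holds 1 NRF1 and 1 ETS match, and Ndufs8 1 ETS match. Cox6a1 carries a self-complementary NRF1 run, counted on both strands, and 1 ETS match, and Atp5l 1 NRF1, 2 ETS and 1 estrogen-related receptor match. In Atp5j none of these letters occurs within the window; the gene overlaps Gabpa on the opposite strand. A match in a window is a description of letters, not of binding. Sdhb, Ndufs8 and Atp5j were called at 6 months in the type 2 arm, and Cox6a1 and Atp5l between the control ages.

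Across 76 members the ratio of TRAP to kidney and the change at 6 months in the type 2 arm had a Pearson r of -0.04 and a Spearman rho of -0.03, and for the change at 24 weeks in the type 1 arm r was -0.53 and rho -0.55. These are descriptions across genes, which are not independent and share their libraries.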

How the data were processed

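Polysome-bound podocyte RNA (36 libraries) and total RNA of 1 whole kidney were sequenced. The authors deposited whole-number read counts per gene and FPKM values side by side. Per the submitters' processing notes the tools included cutadapt 1.16, FastQC, STAR and featureCounts (version listed as 1.15.2), and the build named there is mm9; gene places in the file, however, overlapped those of GENCODE release 21 on GRCm38 for 99.981% of the 31871 matched IDs. No source used here gives the strand setting of the counting. Of the members, 28 overlap a gene on the opposite strand and 12 a gene on the same strand. The deposited FPKM equalled the count divided by exonic length and library total within 0.001 for 100% of values.

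Groups came from the labels. Counts were tested in R 4.3.3 with edgeR 4.0.16 (limma 3.58.1): TMM factors, filterByExpr by group, robust quasi-likelihood fit, Benjamini-Hochberg adjustment over all genes, threshold 0.05. The diabetes, stage and age comparisons were fitted on all 17 type 2 or all 19 type 1 libraries, and the comparisons between arms on all 36. DESeq2 1.42.0, other scaling and filters, left-out libraries, marker scores as covariates and a replicate block were alternatives. TRAP was set against kidney on CPM + 0.5 with no test. Summaries used Python 3.11.15 (pandas 2.3.3, scipy 1.17.1, matplotlib 3.10.9), and the fits were tested on simulated data. Values per library are given for a selection only. It holds most called members of lowest p in each comparison, the paralog Ndufa4l2, and some members of highest FPKM or at the extremes of the kidney ratio. Members whose symbols share named pseudogenes (4 genes, Atp5l and Atp5c1 among them) may have split reads. The members and lists were chosen with earlier results of these data known. The kidney values and intervals cover counting error only.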

Additional observations from a re-analysis of the deposited data

Results flagged for a closer look

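In 154 sets of 4 or 5 libraries (1 gene in 1 group each), 9 values lay farther from the rest of their group than Dixon's 95% critical value allows, where chance gives about 1 in 20 sets. Control replicate 2 at 3 weeks of the type 1 arm was the lowest of its group for 3 genes: Cox5b at 51.5 CPM (the others 62.4 to 64.6 CPM), Uqcr10 at 23.3 CPM (52.3 to 57.3 CPM) and Atp5g1 at 51.2 CPM (64.2 to 66.9 CPM). Cox5b was also low in control replicate 1 of the type 2 arm at 6 months, at 59.4 CPM against 90.7 to 95.5 CPM in the other controls.

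The other 5 were high values. Atp5l had 61.9 CPM in diabetic replicate 3 at 3 months, the library with the highest summed level of its group, against 22.7 to 32.8 CPM in the other diabetic libraries. Atp5j had 104 CPM in diabetic replicate 3 at 24 weeks (the others 52.6 to 65.4 CPM), and Atp5sl had 37.6 CPM in diabetic replicate 1 of the same group (25.8 to 28.1 CPM). Ndufa5 had 80.3 CPM in control replicate 1 at 24 weeks, against 56.6 to 63.3 CPM, which is one of the libraries behind its call between control ages. Atp5b had 1332 CPM in control replicate 4 at 6 months of the type 2 arm, against 1271 to 1282 CPM in the other controls.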

How the results depend on the processing

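Among values of single called members, 8 turned direction, all under a marker covariate at 6 months in the type 2 arm: with the proximal tubule score Atp5b was at 0.31, Atp5d at 0.078, Ndufs8 at 0.063, Sdhb at 0.25 and Uqcrc2 at 0.10, and with the podocyte score Atp5j was at 0.00845, Ndufs8 at 0.014 and Sdhb at 0.11. For that comparison the count of members called lower (26) was 12 with only the 2 groups and 0 with either score, its median (-0.64) was 0.35 with the podocyte score, 0.40 with the proximal tubule score and -0.75 with a replicate block, and 1 member, Ndufa4l2, was called higher with DESeq2, RLE factors, a CPM filter or the replicate block. The genes called (3934) were 2326 with 2 groups, 126 with the podocyte score and 12 with the proximal tubule score. At 3 months the genes called (685) were 1252 with DESeq2, 418 without diabetic replicates 4 and 5 (chosen after seeing the data), 1339 with the podocyte score and 229 with the proximal tubule score; the median (0.11) was then 0.33, 0.36 and 0.72, and 21 and 3 members were higher with the scores. In the stage comparison of the type 2 arm (0 genes) the count was 576 with DESeq2, 2090 without those replicates, 3 with no filter and 71 with a replicate block, with 4 and 35 members lower under DESeq2 and that omission. At 3 weeks the genes called (1058) were 1636 with all 36 libraries, 1735 with DESeq2, 599 with 2 groups, 1626 with the podocyte and 14 with the proximal tubule score; members higher (0) were 2 with DESeq2 and 1 with 2 groups (Cox5b), the podocyte score (Ndufb8) or the replicate block (Cox5b). At 24 weeks the genes called (146) were 271 with all 36 libraries, 423 with DESeq2, 322 with the podocyte and 1 with the proximal tubule score, where the median was 0.10. The stage comparison of the type 1 arm had 14 and 64 genes with all 36 libraries and DESeq2 (0 in the fit reported). Between type 1 control ages the genes called (603) were 1206 with all 36 libraries, 1258 with DESeq2 and 368 with no filter, members higher (7) were 13 with DESeq2, and members lower (2) were 4 with all 36 libraries or DESeq2 and 1 with no filter. Between type 2 control ages (0 genes) DESeq2 called 18 and no filter 2. The late comparison of the arms (81 genes) gave 470 with DESeq2, 22 with no filter and 43 with a replicate block, and DESeq2 called 1 member lower; the early one (174) gave 462 and 99 with DESeq2 and no filter. Against kidney, the median log2 ratio (-0.40) was -0.54 with totals that leave out Rn18s-rs5 and the mitochondrial chromosome, and the members more than 2-fold lower (2) were 4 then, 1 at CPM + 1 and 0 at CPM + 5. Leaving out 1 library at a time gave 1932 to 5350 genes, 4 to 56 members lower, 0 to 1 higher and medians of -0.99 to -0.40 at 6 months; 404 to 737 genes and medians of -0.067 to 0.24 at 3 months; 0 to 1911 genes and 0 to 36 members lower for the type 2 stage; 611 to 1350 genes and 0 to 1 member higher at 3 weeks, where the median (-0.03) ran from -0.06 to 0.07; 67 to 262 genes and medians of -0.14 to -0.02 at 24 weeks; 0 to 3 for the type 1 stage; 365 to 612 genes, 1 to 6 members higher and 1 to 3 lower between type 1 control ages; 4 to 549 genes and 0 to 12 members lower for the late arms; 75 to 243 genes for the early arms; and 1 to 2 members more than 2-fold lower than kidney. Same-numbered libraries shared deviations above a correlation of 0.1 in 3 of 17 pairs, and libraries of other numbers in 9 of 65. The labels do not state that shared numbers pair animals, so the numbers were not taken as pairing. The replicate block called 33 members lower and 1 higher at 6 months in the type 2 arm. The cause of these shifts was not tested. With 3 diabetic libraries at 6 months, and one of low depth, single subunits that missed the threshold are not shown to be unchanged.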
